A study of Mus musculus with 2 samples.

Results

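The 10 genes described here belong to the circadian clock: the repressor receptors Nr1d1 and Nr1d2 (REV-ERB alpha and beta), the period genes Per1, Per2 and Per3, the output factors Dbp and Tef, the repressor Ciart, the activator Npas2 and the cryptochrome Cry1. They were taken by symbol, 10 of the 32285 genes in the files, and all 10 were found. The set was put together with the ratios between these libraries already known, Nr1d1 in fibroblasts foremost, so every ratio below is a description and none carries a test.

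The data are single-cell RNA counts from grafted veins of C57BL6/J mice aged 10 to 12 weeks. There is 1 library of conventional grafts, in which the vein is stripped of its surrounding tissue, and 1 library of grafts harvested by the No-Touch method, which leaves that tissue in place. In both, nucleated living cells negative for CD45, the antigen that all leukocytes carry, were sorted and captured on the 10x Genomics platform. The labels give no harvest time of day, no light schedule, no sex, no number of animals and no operated or unoperated control, and they name 2 kit versions without saying which library had which. With 1 library per group, any difference below is between these libraries: graft type, harvest time, sex, kit and day of preparation cannot be told apart.

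The clock is a transcriptional loop that runs in nearly every mammalian cell. CLOCK or NPAS2, paired with BMAL1 (gene Arntl), binds E-box elements and drives the Per, Cry, Nr1d and Dbp genes. PER and CRY proteins return to block that pair, which closes the loop. REV-ERB proteins repress genes with ROR elements, Arntl foremost, so E-box genes and ROR element genes peak at different times of day. Cry1 carries both kinds of element and peaks later than the other E-box genes. DBP, TEF and HLF are related factors that act at D-boxes, where NFIL3 opposes them.

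The elements of this loop can be read in the promoters of several of these genes, and the stretches that hold them are shown. The gene lists by element used further below were not drawn from these matches. Cry1, shown with an E-box, is there in the ROR element list, and Per3, shown with D-boxes, in the E-box list. RefSeq promoters of 300 bases, 250 before the start site and 50 after it, were at hand for 9 of the 10 members (GRCm38.p6). The search covered both strands for the E-box CACGTG, the related E'-box CACGTT, the D-box TTATGTAA and the ROR element core TNGGTCA. None of these motifs contains another. Some genes have several promoters, and the 9 members have 11. An E-box was found in 5 of the 11, those of 4 members, against 7.15% of all 32851 promoters. An E'-box was found in 2 of the 11 (4.68% of all), a D-box in 1 (0.938%) and a ROR element core in 2 (11.0%). Capitals mark the matches to the motif named on each line, and every stretch reads 5′ to 3′ in the direction of the gene. No annotated exon covers the matches. In the Cry1 stretch only the E-box is in capitals and an E'-box is left in lower case, and in the Per3 stretch only the D-boxes are in capitals and a ROR element core near its end is left in lower case.
Nr1d1, E'-box on the opposite strand, chr11:98775378-98775445, minus strand: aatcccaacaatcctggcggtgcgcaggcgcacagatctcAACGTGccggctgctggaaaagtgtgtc
Per1, E-box, chr11:69098743-69098828, plus strand: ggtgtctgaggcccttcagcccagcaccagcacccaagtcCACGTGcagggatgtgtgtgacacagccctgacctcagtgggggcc
Tef, E-box, chr15:81811236-81811321, plus strand: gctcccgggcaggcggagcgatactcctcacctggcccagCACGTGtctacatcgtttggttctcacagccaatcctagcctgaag
Ciart, E-boxes, chr3:95882252-95882384, minus strand: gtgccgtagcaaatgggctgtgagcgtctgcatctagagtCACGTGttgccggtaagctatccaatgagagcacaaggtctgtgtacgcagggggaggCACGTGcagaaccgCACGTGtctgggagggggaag
Cry1, E-box, chr10:85185069-85185154, minus strand: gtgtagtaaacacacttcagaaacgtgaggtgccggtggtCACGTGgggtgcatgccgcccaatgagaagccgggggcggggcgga
Per3, D-boxes, chr4:151044776-151044910, minus strand: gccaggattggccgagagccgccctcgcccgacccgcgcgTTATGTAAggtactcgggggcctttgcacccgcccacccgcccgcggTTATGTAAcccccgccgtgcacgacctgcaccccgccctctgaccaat
Arntl (no member, the loop's other end), ROR element cores, chr7:113207225-113207330, plus strand: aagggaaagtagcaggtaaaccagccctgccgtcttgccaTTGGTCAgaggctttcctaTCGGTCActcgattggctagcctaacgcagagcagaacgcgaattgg

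Ciart held 3 E-boxes within its window, and Per3 held a pair of D-boxes. The windows of Dbp, Nr1d2 and Npas2 held none of the 4 motifs, which says only that these letters are not in those 300 bases. No promoter was given for Per2.

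Levels are given as CPM, the UMIs of a gene in every 1000000 UMIs summed over all cells of a class in a library. The deposited matrices held 11899 and 12450 barcodes with 200851272 and 373319906 UMIs, in the order conventional, No-Touch, and 9462 and 10377 cells were kept, with medians of 16229 and 27403 UMIs. The libraries shared 22 barcodes. Cells were put in classes by 6 markers each, and 7 classes had at least 50 cells in both libraries. There were 6125 and 8222 fibroblast-like cells, 930 and 516 mural-like cells (smooth muscle cells and pericytes), 786 and 367 blood endothelial-like, 315 and 288 lymphatic endothelial-like and 169 and 250 Schwann-like cells. Cells with leukocyte markers remained after the sort, 394 and 74 neutrophil-like and 62 and 87 mononuclear phagocyte-like. Within 0.05 of the limits of the marker score lay 17 of the 62 and 22 of the 87 phagocyte-like cells, and 50 of the 394 and 17 of the 74 neutrophil-like cells. Fibroblast markers summed to between 4.43% and 13.2% of the fibroblast level in the other 6 classes. In the conventional library both Xist (98.5 to 346 CPM over classes) and Y-linked genes (106 to 176 CPM) were present. In the No-Touch library Xist was at 0 to 0.378 CPM and Y-linked genes at 181 to 247 CPM. Cells with Xist and no Y-linked UMIs were thus found almost only in the conventional library, a difference the labels do not give.

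Nr1d1 (chr11:98767932-98775333, minus strand) encodes REV-ERB alpha, the haem-binding receptor that represses Arntl. It was higher in the No-Touch library in all 7 classes. In fibroblast-like cells it stood at 25.3 CPM in the conventional library and reached 148 CPM in the No-Touch library, which makes a ratio of 5.86 (exact 95% interval 5.66 to 6.07). In mural-like cells the levels were 37.5 and 174 CPM, a ratio of 4.65 (4.14 to 5.22). In Schwann-like cells they were 47.3 and 235 CPM, a ratio of 4.97 (3.86 to 6.51). The interval of the Schwann-like class overlapped both others, and the fibroblast-like ratio lay above the mural-like one. The endothelial classes started higher and ended lower. Blood endothelial-like cells had 65.3 and 120 CPM, a ratio of 1.84 (1.66 to 2.02). Lymphatic endothelial-like cells had 51.0 and 95.4 CPM, a ratio of 1.87 (1.56 to 2.24). The intervals of the endothelial classes do not overlap those of the fibroblast-like, mural-like or Schwann-like classes. Neutrophil-like cells gave 7 and 12 UMIs, or 6.44 and 35.5 CPM, a ratio of 5.51 (2.00 to 16.5). Mononuclear phagocyte-like cells gave 6 and 36 UMIs, or 15.9 and 37.5 CPM, a ratio of 2.36 whose interval (0.984 to 6.85) includes 1. All intervals cover counting error only.

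**Figure D1:**
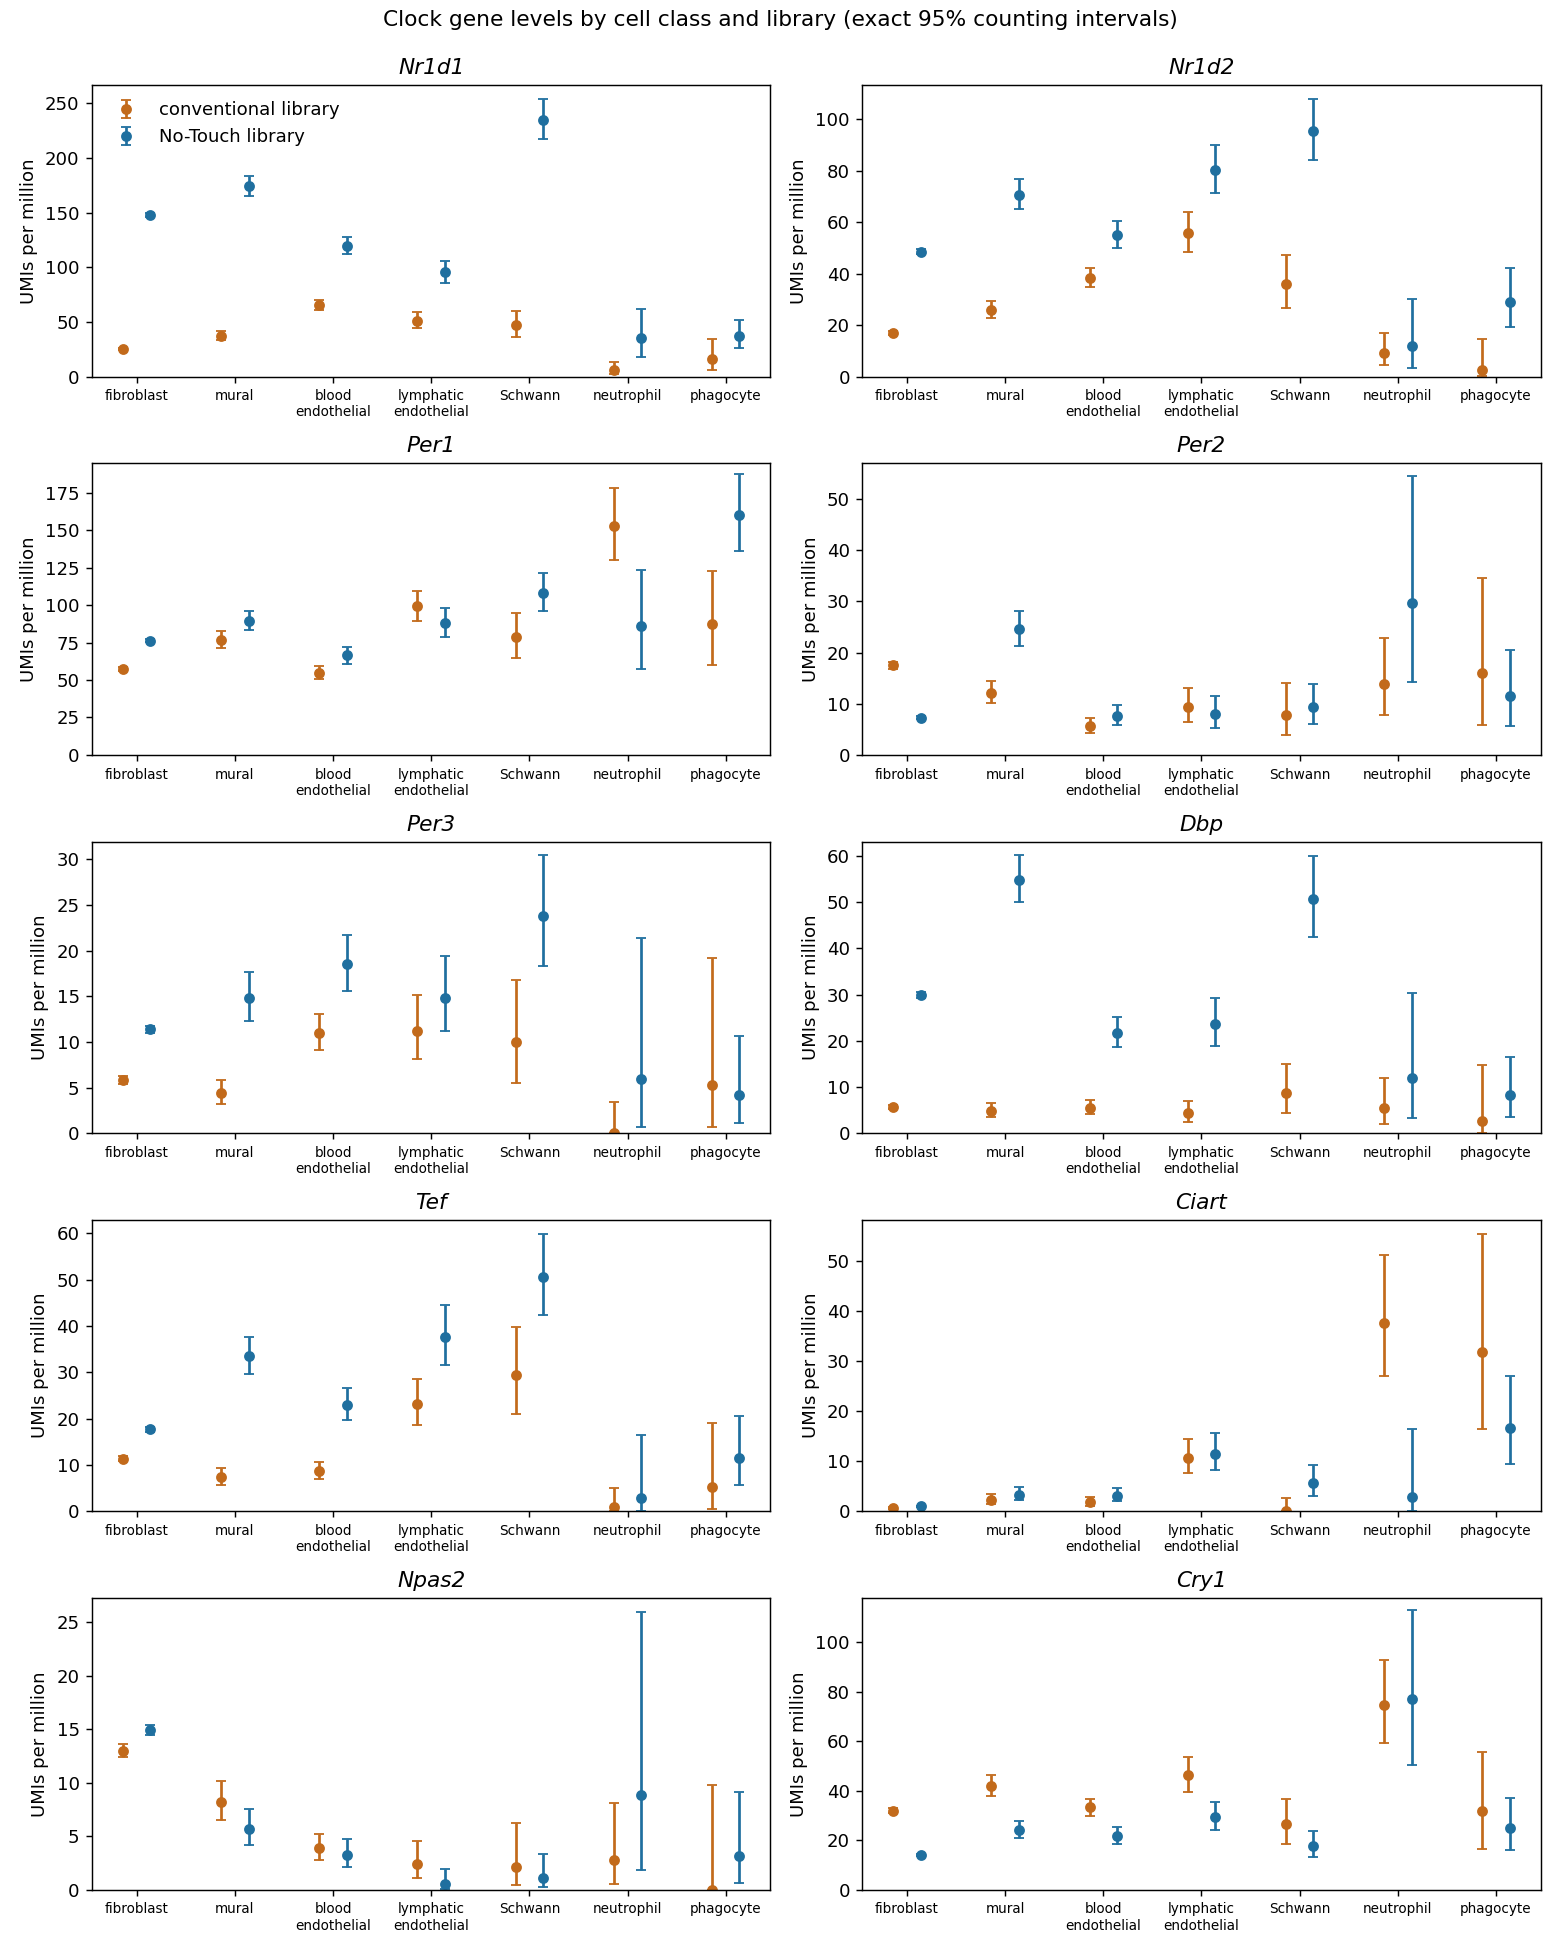
Levels of the 10 clock genes (CPM) in 7 cell classes; orange points are the conventional library, blue points the No-Touch library, and bars are exact 95% counting intervals. Nr1d1 lies higher in the No-Touch library in every class, from 25.3 to 148 in fibroblast-like cells, and Cry1 lower in all classes but neutrophil-like, where TMM and median-of-ratios scaling put its ratio below 1.

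The order of Nr1d1 levels over the classes differed between the libraries. In the No-Touch library it ran from Schwann-like (235 CPM) through mural-like, fibroblast-like and blood endothelial-like to lymphatic endothelial-like cells (95.4 CPM), and counting intervals of neighbours did not overlap. Mononuclear phagocyte-like and neutrophil-like cells came last, and their intervals did overlap. In the conventional library blood endothelial-like cells had the highest level (65.3 CPM, interval 60.7 to 70.3) and overlapped no neighbour's interval. Lymphatic endothelial-like, Schwann-like and mural-like cells followed, with 51.0, 47.3 and 37.5 CPM, and the interval of Schwann-like cells (36.6 to 60.2) overlapped both others. Fibroblast-like cells came next, above phagocyte-like cells at 15.9 CPM (5.83 to 34.6), whose interval includes the fibroblast level.

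Nr1d2 (chr14:18204054-18239127, minus strand) encodes REV-ERB beta, which shares the targets of REV-ERB alpha. Its ratios were smaller than those of Nr1d1 in every class but the mononuclear phagocyte-like one. In fibroblast-like cells it stood at 17.0 and 48.6 CPM, a ratio of 2.85 (2.73 to 2.98). In mural-like cells the levels were 25.9 and 70.7 CPM, and in Schwann-like cells 35.8 and 95.5 CPM, with ratios of 2.73 (2.35 to 3.17) and 2.67 (1.96 to 3.69). In blood and lymphatic endothelial-like cells the ratios were 1.44 (1.26 to 1.65) and 1.44 (1.20 to 1.73). Neutrophil-like cells had 10 and 4 UMIs, too few to place the ratio on either side of 1 (0.295 to 4.46). Mononuclear phagocyte-like cells had 1 and 28 UMIs, or 2.65 and 29.2 CPM, a ratio of 11.0 whose interval ran from 1.82 to 450.0.

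Dbp (chr7:45705088-45710203, plus strand) encodes the D-box binding protein, a direct E-box output that swings widely over the day in many tissues. It was low in the conventional library in every class, between 2.65 and 8.60 CPM. In the No-Touch library it reached 29.9 CPM in fibroblast-like cells, against 5.65, a ratio of 5.29 (4.91 to 5.70). Mural-like cells had 4.86 and 54.8 CPM, a ratio of 11.3 (8.38 to 15.5). Schwann-like cells had 8.60 and 50.6 CPM, a ratio of 5.88 (3.26 to 11.7). Within each endothelial class the libraries lay further apart in Dbp than in Nr1d1. Blood endothelial-like cells had 5.53 and 21.7 CPM, a ratio of 3.93 (2.92 to 5.35), and lymphatic endothelial-like cells 4.27 and 23.7 CPM, a ratio of 5.53 (3.22 to 10.1). The interval of the mural-like class overlapped those of the lymphatic endothelial-like and Schwann-like classes, and lay above those of the fibroblast-like and blood endothelial-like classes. Neutrophil-like cells held 6 and 4 Dbp UMIs and phagocyte-like cells 1 and 8, and both intervals include 1.

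Tef (chr15:81802421-81826863, plus strand) encodes the thyrotroph embryonic factor, a relative of DBP. It was higher in the No-Touch library in the 5 classes of stromal, endothelial and Schwann-like cells. Mural-like cells had 7.38 and 33.4 CPM, a ratio of 4.53 (3.49 to 5.94), and blood endothelial-like cells 8.70 and 23.0 CPM, a ratio of 2.64 (2.05 to 3.42). Fibroblast-like cells had 11.4 and 17.7 CPM, a ratio of 1.56 (1.47 to 1.65). Lymphatic endothelial-like cells had 23.2 and 37.7 CPM and Schwann-like cells 29.4 and 50.6 CPM, with ratios of 1.62 (1.23 to 2.14) and 1.72 (1.21 to 2.51). The third factor of this family, Hlf, was under 5 CPM in fibroblast-like cells of both libraries. In mural-like cells it stood at 1.21 and 12.5 CPM, 12 and 104 UMIs, a ratio of 10.3 (5.66 to 20.6). Without clusters led by another class's markers, mural-like Hlf was only 0.876 and 2.54 CPM, a ratio of 2.90 (1.14 to 7.98).

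The period genes did not move as a group. Per1 (chr11:69095217-69109960, plus strand), which also answers directly to cAMP and glucocorticoid signals, lay close to equal. It had 57.6 and 76.1 CPM in fibroblast-like cells, a ratio of 1.32 (1.29 to 1.36). Its ratio was 1.16 (1.05 to 1.29) in mural-like, 1.21 (1.08 to 1.37) in blood endothelial-like and 1.37 (1.10 to 1.72) in Schwann-like cells. In mononuclear phagocyte-like cells it was 1.83 (1.25 to 2.76), and in lymphatic endothelial-like cells the interval included 1. In neutrophil-like cells it went the other way, from 153 to 85.9 CPM (166 and 29 UMIs), a ratio of 0.562 (0.365 to 0.837).

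Per2 (chr1:91415982-91459324, minus strand), the partner of the cryptochromes, was lower in the No-Touch library in fibroblast-like cells, with 17.5 and 7.30 CPM, a ratio of 0.417 (0.393 to 0.442). In mural-like cells it was higher, with 12.1 and 24.5 CPM, a ratio of 2.02 (1.60 to 2.55). The difference between these classes was not tested, and in each of the other 5 classes the interval included 1, neutrophil-like cells (15 and 10 UMIs, ratio 2.14) among them. Per3 (chr4:151003652-151044665, minus strand) was higher in the No-Touch library in 4 classes. Fibroblast-like cells had 5.80 and 11.4 CPM, a ratio of 1.96 (1.81 to 2.12), and mural-like cells 4.35 and 14.8 CPM, a ratio of 3.40 (2.38 to 4.93). Blood endothelial-like cells had 11.0 and 18.5 CPM and Schwann-like cells 10.0 and 23.8 CPM, with ratios of 1.69 (1.32 to 2.16) and 2.37 (1.31 to 4.58).

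**Figure D2:**
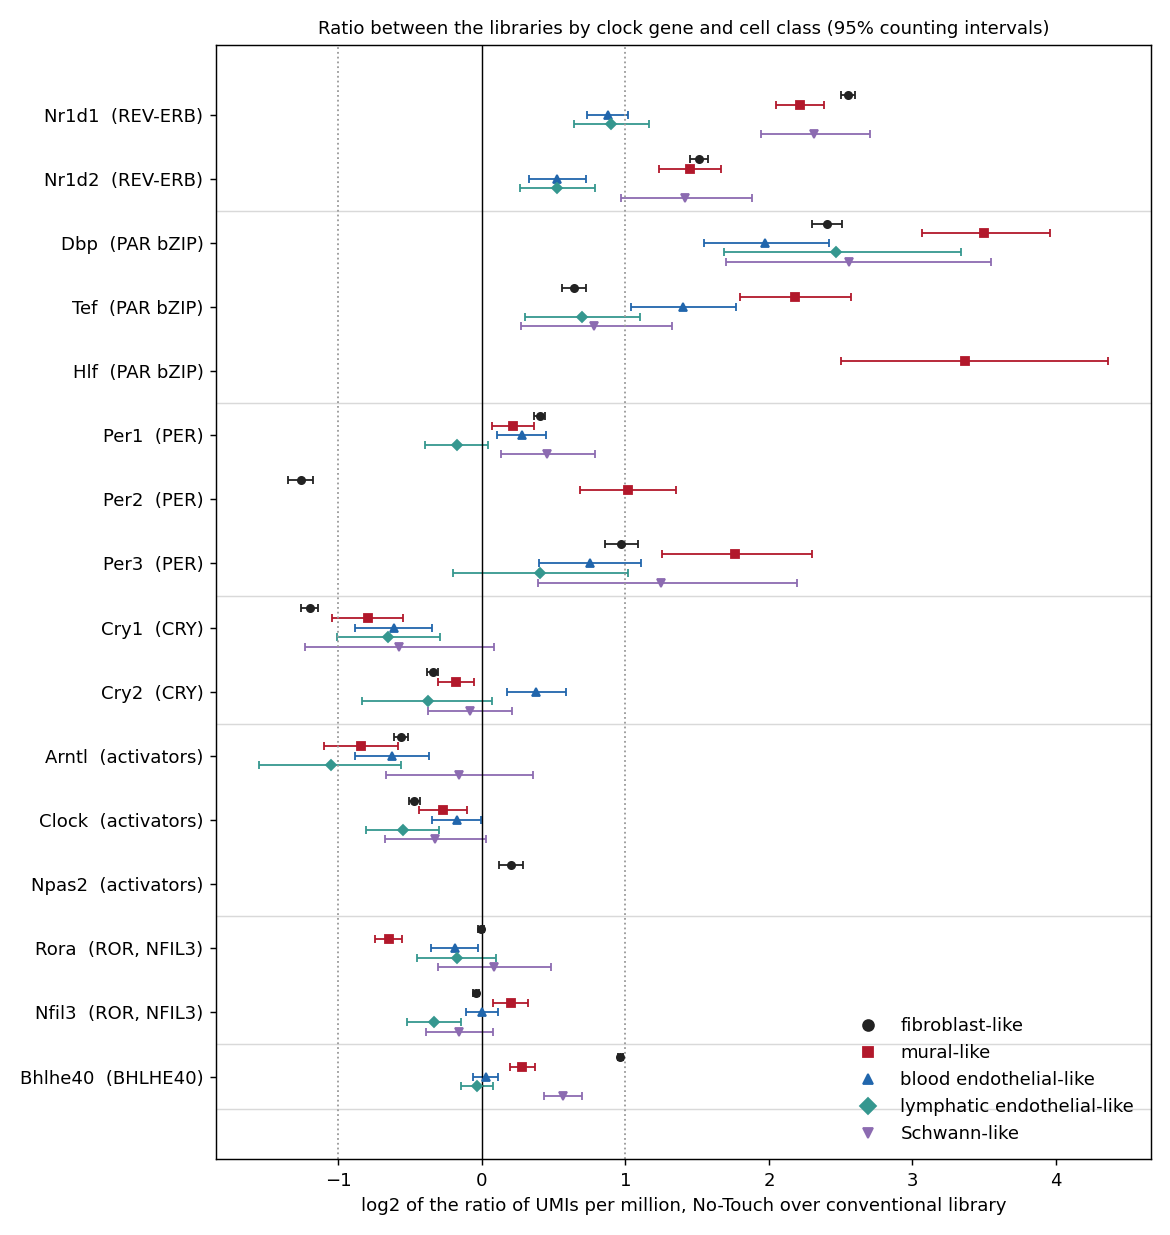
Log2 of the No-Touch over conventional ratio of CPM for 16 clock genes, grouped by role, in 5 cell classes (symbols; bars are 95% counting intervals; dotted lines mark 2 times apart; genes under 10 CPM in both libraries are not drawn). Nr1d1, Nr1d2, Dbp and Tef lie right of 0 in every class drawn, Cry1 and Arntl left of 0, and Per2 lies on opposite sides in fibroblast-like and mural-like cells.

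Cry1 (chr10:85131700-85185064, minus strand), the strongest repressor of CLOCK and BMAL1, was lower in the No-Touch library. Fibroblast-like cells had 31.9 and 13.9 CPM, a ratio of 0.435 (0.417 to 0.454). Mural-like cells had 42.0 and 24.2 CPM, a ratio of 0.576 (0.484 to 0.683). In blood and lymphatic endothelial-like cells the ratios were 0.653 (0.542 to 0.785) and 0.637 (0.495 to 0.815). The interval of Schwann-like cells included 1 (0.426 to 1.06), with 26.5 and 17.7 CPM. Neutrophil-like cells had the highest Cry1 level of both libraries, 74.6 and 77.0 CPM, and their ratio of 1.03 (0.637 to 1.62) did not leave 1 and fell below it with TMM and median-of-ratios scaling.

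Npas2 (chr1:39193731-39363236, plus strand), which can stand in for CLOCK, reached 10 CPM only in fibroblast-like cells, at 13.0 and 14.9 CPM, a ratio of 1.15 (1.09 to 1.22). As a median over fibroblast clusters its log2 ratio was -0.10. Ciart (chr3:95878503-95882251, minus strand), a repressor of CLOCK and BMAL1 also called CHRONO, was at 0.692 and 1.06 CPM in fibroblast-like cells. It was most abundant in neutrophil-like cells of the conventional library, at 37.7 CPM from 41 UMIs, while the No-Touch library held 1 UMI (2.96 CPM), a ratio of 0.0785 (0.00194 to 0.462). In Schwann-like cells it had 0 UMIs in the conventional library and 15 in the No-Touch library (5.66 CPM), where the conventional total allows up to 2.15 CPM.

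A gene was counted as higher or lower when it reached 10 CPM in either library and the CPM + 1 differed at least 2 times. In fibroblast-like cells 9 of the 10 members reached 10 CPM. Nr1d1, Nr1d2 and Dbp were higher and Per2 and Cry1 lower, while 1.41% of the 8448 genes of that level were higher and 1.18% lower. Nr1d1 ranked 11th and Dbp 14th from the highest ratio in that class. In mural-like cells 5 of 8 were higher (Nr1d1, Nr1d2, Per3, Dbp and Tef) and 0 lower, against 4.05% and 1.96% of all genes, and Dbp ranked 5th of 8846. In blood endothelial-like cells 2 of 7 were higher, Dbp and Tef, against 4.12% of genes higher and 1.54% lower. In lymphatic endothelial-like cells only Dbp of 8 was higher, against 2.96% higher and 1.64% lower. In Schwann-like cells 4 of 7 were higher (Nr1d1, Nr1d2, Per3 and Dbp), against 3.62% higher and 3.52% lower. The small leukocyte classes called many genes: 13.9% of genes were higher and 10.3% lower in neutrophil-like cells, and 11.6% higher and 8.12% lower in phagocyte-like cells. There 2 of 7 members were higher (Nr1d1 and Per2) and 1 lower (Ciart) in neutrophil-like cells, and 2 of 7 higher (Nr1d1 and Nr1d2) in phagocyte-like cells, from 1 to 41 UMIs a gene and library. Scaling moved the balance of all calls by more than 10 percentage points in 3 classes. Of the genes called, 67.4% were higher in mural-like, 72.8% in blood endothelial-like and 57.6% in neutrophil-like cells, against 57.0%, 60.5% and 45.8% with TMM scaling and 54.5%, 59.5% and 47.3% with median-of-ratios scaling, which shifted the median of all genes by more than 0.1 on the log2 scale there, to -0.05, -0.07 and -0.06. By less, the share went from 54.3% to 49.8% and 49.5% in fibroblast-like and from 50.7% to 45.5% and 43.5% in Schwann-like cells. The median log2 ratio of the members was 0.60 in fibroblast-like and 1.49 in mural-like cells, beside 0.05 and 0.08 over all genes. It was 0.70 in blood endothelial-like, 0.45 in lymphatic endothelial-like and 1.17 in Schwann-like cells, beside 0.06, 0.00 and 0.07. Since the members were chosen from these ratios, these counts support nothing by themselves.

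**Figure D3:**
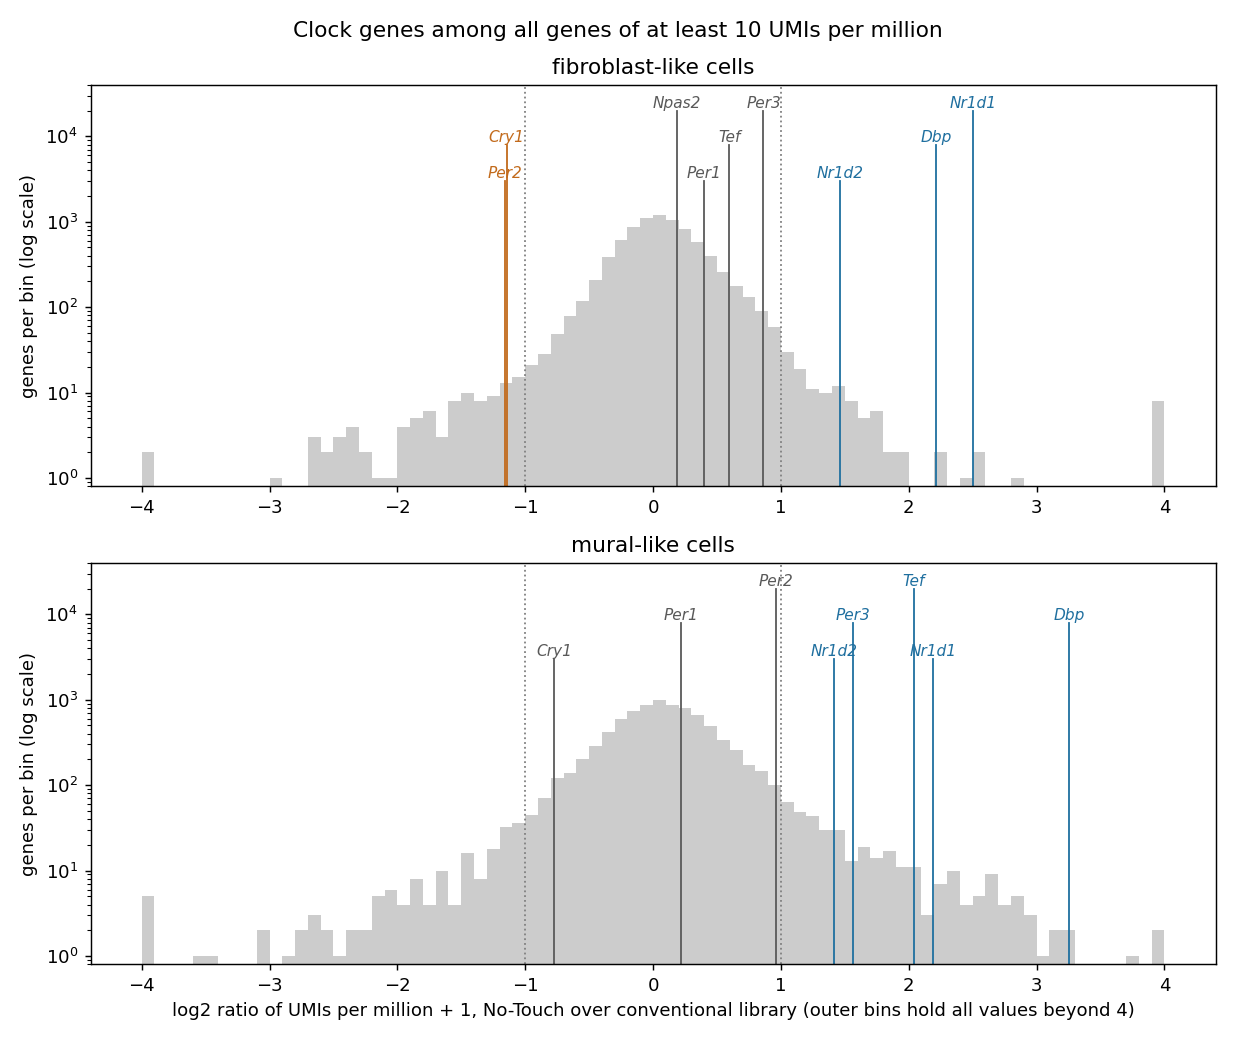
Number of genes per bin of the log2 ratio of CPM + 1, No-Touch over conventional (log y axis), for all genes of at least 10 CPM in fibroblast-like (top) and mural-like cells (bottom), with the members marked (blue higher, orange lower, grey neither; dotted lines at 2 times). Nr1d1 and Dbp stand in the far right tail of both, and Per2 lies left in the upper and right in the lower panel.

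The remaining clock genes follow a list of 18. In fibroblast-like cells 13 of them reached 10 CPM and 0 differed at least 2 times. The nearest was Bhlhe40, an E-box repressor, with 209 and 408 CPM, a ratio of 1.95 (1.93 to 1.98). In mural-like cells 2 of 14 were higher (Arntl2 and Hlf) and 0 lower, and in lymphatic endothelial-like cells 1 of 12 was lower and 0 higher. Blood endothelial-like and Schwann-like cells had 0 apart. Neutrophil-like cells had 2 of 11 higher and 3 lower, and phagocyte-like cells 2 of 12 higher and 1 lower. The shares of all genes called are those given above. Of the genes known to answer to ROR elements, Arntl, the BMAL1 gene that REV-ERB represses, was lower in the No-Touch library in the 4 classes with the most cells. It had 41.7 and 28.2 CPM in fibroblast-like cells, a ratio of 0.677 (0.654 to 0.700). Mural-like cells had 39.4 and 22.0 CPM, blood endothelial-like 36.0 and 23.4 CPM and lymphatic endothelial-like 29.7 and 14.3 CPM, with ratios of 0.558 (0.465 to 0.667), 0.649 (0.543 to 0.774) and 0.482 (0.340 to 0.676). Only the last passed 2 times. Schwann-like cells had 38.0 and 34.0 CPM, with an interval that included 1 (0.630 to 1.28). Clock, its partner, had ratios of 0.722 (0.702 to 0.743) in fibroblast-like and 0.683 (0.573 to 0.813) in lymphatic endothelial-like cells. Its ratios lay nearer 1 in mural-like (0.828, 0.737 to 0.929) and blood endothelial-like cells (0.886, 0.787 to 0.997). The interval included 1 in Schwann-like, neutrophil-like and phagocyte-like cells. Nfil3, the D-box repressor, lay at 183 and 178 CPM in fibroblast-like cells, a ratio of 0.972 (0.958 to 0.987), and the activator Rora at 158 and 157 CPM. Arntl2 went the other way from Arntl, with 13.45 and 29.1 CPM in mural-like cells, a ratio of 2.16 (1.74 to 2.69). It stayed under 10 CPM in the other classes. There its ratio was 2.30 (2.05 to 2.57) in fibroblast-like, 5.34 in blood endothelial-like (8 and 31 UMIs) and 5.27 in Schwann-like cells (2 and 20 UMIs).

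Set out by element, the list of 13 E-box genes had 11 at 10 CPM in fibroblast-like cells, 3 of them higher and 1 lower, and their median on the log2 scale was 0.60. The list of 6 ROR element genes had 5, 0 higher and 1 lower (Cry1), with a median of -0.46. In mural-like cells the medians were 1.42 and -0.52, in blood endothelial-like cells 0.52 and -0.38, in lymphatic endothelial-like cells 0.24 and -0.59 and in Schwann-like cells 0.66 and -0.24. With the members included, the ROR element list thus lay below the E-box list in each of these 5 classes, which share their 2 libraries. Without the members, the E-box list had 4 genes at 10 CPM in fibroblast-like cells and a median of -0.00, and the ROR element list 3 genes and a median of -0.46. In that class the separation of the E-box list from 0 rests on the members. Also without them, the medians were 0.05 and -0.27 in mural-like and 0.24 and -0.17 in blood endothelial-like cells. Lymphatic endothelial-like cells had -0.035 and -0.54. In mural-like and lymphatic endothelial-like cells too, the E-box list without the members lay near the median of all genes (0.077 and 0.003). In Schwann-like cells the order was reversed, at -0.29 and -0.16, from 4 and 3 genes. That the loop stood at different times of day in the libraries was not tested, since neither harvest time is given.

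Fibroblast-like cells are a mixed class, so the members were read again within clusters made without clock genes. Of the gated cells, 11 clusters had at least 50 in both libraries, with 4955 and 7978 cells together. Several clusters were drawn mostly from 1 library, such as the Saa3, Cxcl13 and Lcn2 cluster with 1216 and 50 cells and the Pi16 and Sema3c cluster with 126 and 1401. Nr1d1 was higher in the No-Touch library in 11 of 11, with ratios from 2.89 to 13.7 (median 6.64). Dbp was higher in 11 of 11, from 2.33 to 9.90, and Nr1d2 in 11 of 11, from 1.76 to 3.87, each with an interval above 1. Cry1 was lower in 11, its interval below 1 in 10. Per2 was lower with its interval below 1 in 9. The clusters share their libraries, so they are no replicates.

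**Figure D4:**
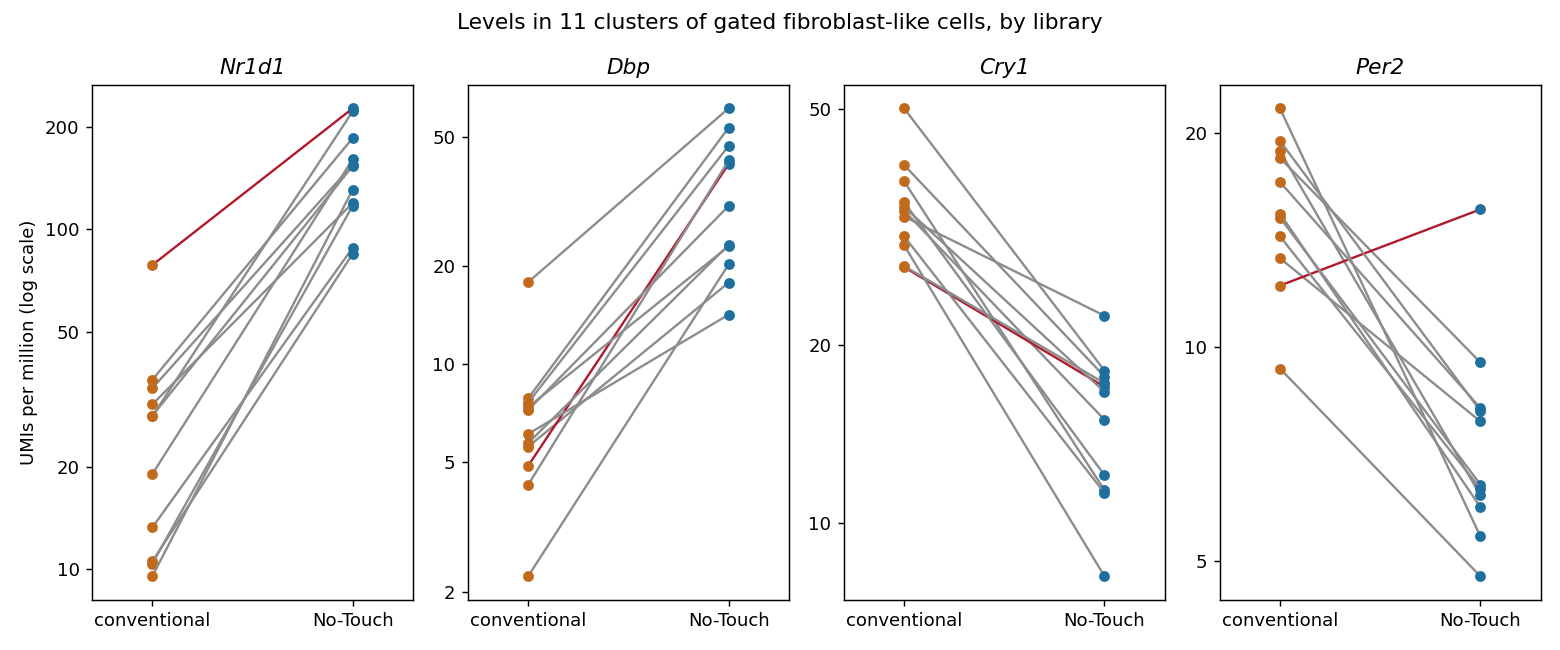
Levels (CPM, log axis) of Nr1d1, Dbp, Cry1 and Per2 in 11 clusters of fibroblast-like cells, conventional (orange) joined to No-Touch (blue); the red line is the cluster led by Acta2, Spp1 and Tagln. All lines for Nr1d1 and Dbp go up and all for Cry1 go down, and the red line is the only rising Per2 line.

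The exception for Per2 was a cluster led by Acta2, Spp1, Tagln and Mmp13, contractile genes and matrix genes, with 498 and 118 gated cells. Per2 stood there at 12.2 and 15.6 CPM, a ratio of 1.28 (0.924 at the low end of its interval), and Nr1d1 at 78.4 and 226 CPM. That cluster had 2 mural markers among its 10 leading genes. It had 0 fibroblast markers there, but so did every other cluster of mostly fibroblast-like cells. A small cluster led by the mesothelial gene Wt1 was mixed too. Without both, fibroblast-like Nr1d1 was 20.1 and 147 CPM, a ratio of 7.31 (7.02 to 7.62), Dbp 5.17 (4.79 to 5.59) and Cry1 0.428 (0.409 to 0.447). Mural-like Nr1d1 was then 4.29 (3.77 to 4.89), Dbp 8.19 (5.98 to 11.4) and Per2 1.58 (1.20 to 2.09). In the 2 mural clusters, Nr1d1 had ratios of 3.19 and 4.73, and Per2 ratios of 2.02 and 1.48.

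Cells with Y-linked UMIs and no Xist were compared on their own, since Xist cells were nearly absent from the No-Touch library. Among 3932 and 7822 such fibroblast-like cells, Nr1d1 stood at 26.3 and 149 CPM, a ratio of 5.66 (5.43 to 5.90), and Dbp at 6.14 and 30.1 CPM, a ratio of 4.90 (4.50 to 5.35). In mural-like cells the Nr1d1 ratio was 5.17 (4.44 to 6.04), in Schwann-like cells 4.22 (3.02 to 6.06), in blood endothelial-like cells 1.81 (1.62 to 2.04) and in lymphatic endothelial-like cells 1.97 (1.59 to 2.45). Cry1 had a ratio of 0.421 (0.401 to 0.442) in fibroblast-like cells. Among these ratios those of Nr1d1 in fibroblast-like, Schwann-like and blood endothelial-like cells and of Dbp in fibroblast-like cells were smaller than over all cells, and those of Nr1d1 in mural-like and lymphatic endothelial-like cells larger. Within the conventional library, fibroblast-like cells with Xist only had less Nr1d1 than those with Y-linked UMIs only. The levels were 19.9 against 26.3 CPM, a ratio of 0.754 (0.676 to 0.840). In mural-like cells of that library the order was reversed, at 44.4 against 34.4 CPM, a ratio of 1.29 (1.02 to 1.63). In blood and lymphatic endothelial-like cells the interval of this ratio included 1.

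Nr1d1 was not carried by a few cells. After each cell was thinned to 3000 UMIs, an Nr1d1 UMI was held by 6.63% (6.02 to 7.29) of the 6046 fibroblast-like cells from conventional grafts and by 30.0% (29.0 to 31.1) of the 8116 from the other library, leaving out 79 and 106 shallower cells. The unthinned shares were 27.4% and 79.2%. Were the UMIs spread evenly over cells, the thinned shares would be 8.11% and 35.9%. The variance over the mean was 1.495 and 1.484, so cells of both libraries differed in Nr1d1 beyond counting. Dbp had 1.67% and 7.78% and Cry1 9.48% and 4.31% of thinned cells with a UMI. In the No-Touch library Dbp was found in 12.9% of thinned cells with Nr1d1 and 5.57% of those without, and in the conventional library in 2.24% and 1.63%. For comparison, neutrophil-like cells, which had less of the gene, held an Nr1d1 UMI in 2.19% of 137 and 7.35% of 68 thinned cells. There 257 and 6 shallower cells were left out. Whether those UMIs were free RNA was not tested. Median depths before thinning and before leaving out cells were 2639.5 and 4365 UMIs, against 19727 and 31336 in fibroblast-like cells.

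**Figure D5:**
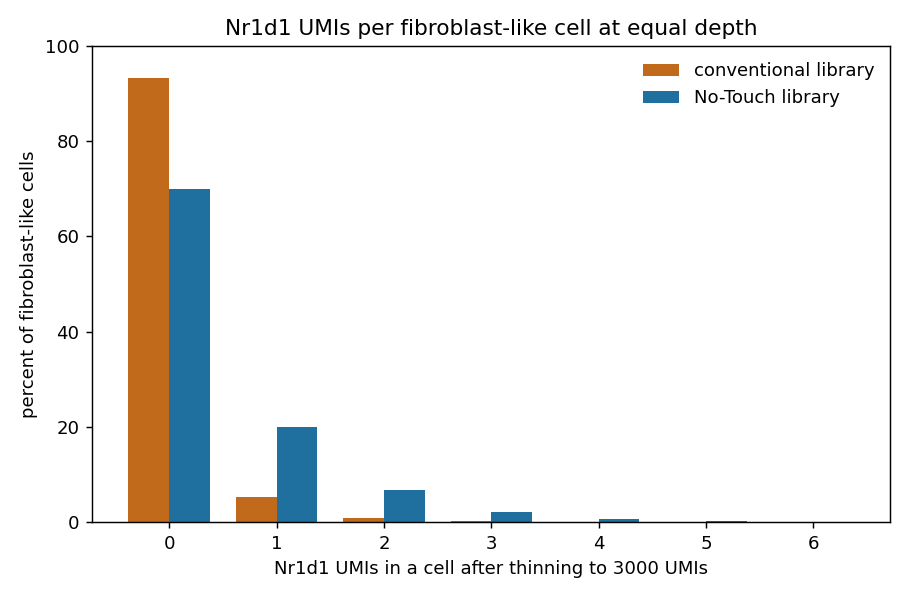
Share of fibroblast-like cells (percent, y axis) by their number of Nr1d1 UMIs after thinning to 3000 UMIs (x axis), conventional orange and No-Touch blue. Of conventional cells 93.4% have 0 UMIs, of No-Touch cells 70.0%, and every count from 1 up is more frequent in the No-Touch library.

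Free RNA could carry fibroblast transcripts into other classes. At the share of fibroblast markers found in each class, fibroblast RNA would give 13.3 CPM of Nr1d1 in No-Touch mural-like cells, against 174 measured, and 14.4 CPM in neutrophil-like cells, against 35.5. It would give 2.70 CPM of Dbp in mural-like cells, against 54.8. In the neutrophil-like class that amount lies near the lower end of the counting interval (18.4 CPM).

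Overlapping genes were read as a check on counting. Nr1d1 overlaps the 3' end of Thra on the opposite strand (chr11:98768157-98768419), and Thra stood at 99.0 and 96.5 CPM in fibroblast-like cells, a ratio of 0.976 (0.956 to 0.996). Dbp overlaps Sphk2 (chr7:45709665-45710203, opposite strand), which stood at 12.4 and 12.3 CPM. Tef overlaps the antisense gene Gm17597, which had 4 and 10 UMIs in fibroblast-like cells.

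Lists of genes that answer to signals from outside the clock were set beside the members. Of 10 glucocorticoid response genes, 9 reached 10 CPM in fibroblast-like cells, 2 were lower, 0 higher and 8 lay below 0, the median being -0.41 on the log2 scale. Zbtb16, a steroid-induced transcription factor, had 54.4 and 14.1 CPM, and Tsc22d3, which encodes the glucocorticoid-induced leucine zipper, 167 and 75.7 CPM. In mural-like cells 0 of 10 differed at least 2 times, and 1 was lower in each of the blood endothelial-like, lymphatic endothelial-like and Schwann-like classes. The medians of these 4 classes were -0.24, -0.34, 0.155 and -0.45. Tsc22d3 was higher in neutrophil-like and phagocyte-like cells, with ratios of 2.80 (2.31 to 3.385) and 2.51 (1.88 to 3.43). The list had 6 of 8 genes above 0 in neutrophil-like cells and 3 of 8 in phagocyte-like cells, where 1 was lower. Of 14 immediate early and CREB response genes, all reached 10 CPM in fibroblast-like cells and 0 differed at least 2 times, with 9 below 0 and a median of -0.18. In mural-like, blood endothelial-like and lymphatic endothelial-like cells 11 of the 14 lay above 0, with medians of 0.21, 0.32 and 0.42, and 1 was higher in each. That gene was Fos, a subunit of AP-1, with ratios of 2.68 (2.63 to 2.73), 4.67 (4.54 to 4.81) and 3.86 (3.74 to 3.98). In phagocyte-like cells 3 were higher, in Schwann-like and neutrophil-like cells 0. Their part in the ratios of Per1 and Per2 was not tested.

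Over the 14 profiles of 7 classes in 2 libraries, Ldb1 was the gene whose log2 level was most like that of Nr1d1 (Pearson r = 0.934), followed by Paip2 (0.931), Mex3d (0.930), Cnep1r1 (0.928), mt-Nd6 (0.924), Tm9sf1 (0.922), Mex3c (0.915), Psmc6 (0.912), Morf4l2 (0.909) and Tgtp2 (0.909), among 6386 genes of at least 50 CPM in some class. Of the clock genes, Per3 had r = 0.901, Nr1d2 0.854, Tef 0.842 and Dbp 0.832, and Cry1 -0.731. The other members had 0.081 (Npas2), -0.278 (Per1), -0.317 (Per2) and -0.433 (Ciart). Arntl and Clock, which were lower in No-Touch fibroblast-like cells, had positive values of 0.562 and 0.539. The profiles share their libraries and depths, so these values are a description. Dbp was 3rd of 4925 genes by its lowest ratio over the 4 classes with at least 200 cells in both libraries, at a log2 ratio of 1.80 or more in each. Bpifa2, a salivary secretory gene, and Rpa3, a DNA replication subunit, came before it, and Irgm1, Has1, Cthrc1, Sfrp2, Tgtp2, Tm9sf1, Med30 and Snhg6 after it. Nr1d1 was 28th, at 0.87 or more.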

How the data were processed

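The authors deposited a matrix of raw UMI counts, genes by barcodes, for each library. The submitters' processing notes name Cell Ranger 3.1.0 and mm10, while per the file headers Cell Ranger 6.0.0 wrote them.

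Kept were barcodes with 500 genes and 1000 UMIs or more and a mitochondrial share up to 10%. The highest Scrublet scores (scanpy 1.11.5), 0.8% per 1000 barcodes in both libraries, were removed as doublets, 996 and 1148 cells. Each cell got 11 scores, the mean over 6 markers of its log2 level against the 100 highest cells, and took the class that reached 0.2 and led by 0.1. Within 0.05 of those limits, on either side, lay 528 and 374 cells. Leiden clusters used 2000 variable genes without clock genes, 30 components, 15 neighbours and resolution 1.0.

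Counts were summed per class and library and scaled to CPM. Printed ratios use no pseudocount, and calls and log2 ratios add 1. Intervals are exact at 95% (Garwood for counts, Clopper-Pearson for shares and for ratios given their sum), and the limit for a count of 0 is 3 UMIs. PCR and cell sampling are not in them. With 1 library per group no test was run. On simulated counts the call rule was tested. TMM (edgeR 4.0.16) and median-of-ratios factors (DESeq2 1.42.0) were alternatives. The members, lists and named genes (the clock lists, the 10 genes most like Nr1d1, the 10 with the highest shared ratio, and overlapping genes) were chosen with earlier results of these data known. Gene positions are from GENCODE vM21 (GRCm38). Leaving out cells with Xist, medians over fibroblast clusters, and leaving out clusters led by another class's markers were alternatives chosen after seeing the data.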

Additional observations from a re-analysis of the deposited data

Results flagged for a closer look

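The direction of 3 members differed between cell classes, and none of these differences was tested. Per1 had No-Touch over conventional ratios of 1.32 in fibroblast-like, 1.16 in mural-like, 1.21 in blood endothelial-like, 1.37 in Schwann-like and 1.83 in mononuclear phagocyte-like cells, and of 0.562 in neutrophil-like cells, each with a counting interval on its side of 1. Per2 had a ratio of 2.02 in mural-like and of 0.417 in fibroblast-like cells. Ciart had a ratio of 1.54 in fibroblast-like cells, at about 1 CPM, and of 0.0785 in neutrophil-like cells, from 41 and 1 UMIs.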

How the results depend on the processing

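No paired analysis was possible because each group has 1 library. Of 719 values recomputed for 67 ratios, 674 stayed within counting error of the reported value and 45 moved further. Ratios from few UMIs have wide intervals, so they had more room to stay within them. Among ratios from many UMIs, log2 Nr1d1 in fibroblast-like cells ran from 2.16 to 2.81 over the settings and Dbp from 1.35 to 2.36. Both ranges reached beyond the counting interval. The sign differed from the reported one in 15 values of 11 ratios. None of these 11 had been called higher or lower, and 10 had an interval that included 1. The other was Npas2 in fibroblast-like cells, at -0.10 on the log2 scale as a median over clusters. With a minimum of 50 CPM, 1 member was higher and 0 lower in fibroblast-like cells (3 and 2 at the reported setting), and Nr1d1 was higher in 3 classes and Dbp in 2 (5 each). Fewer genes reach that minimum. With a limit of 1.5 times, 5 members were higher and 1 other clock gene was apart. With a pseudocount of 10, 0 members were lower. The share of all genes called was not worked out at the changed minimum, limit or pseudocount, so these counts have no share to be read against. With Y-linked cells only, Nr1d1 was higher in 3 classes, the fibroblast-like, mural-like and Schwann-like ones. Neutrophil-like (74 and 39) and phagocyte-like cells (23 and 68) then had under 50 cells in a library and were not compared. Without clusters led by another class's markers 1 other clock gene, Bhlhe40, was apart in fibroblast-like cells. Few cells, and the share of them near the limits of the marker score, limit the leukocyte values, and no replicate library bears on any of them.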
